A study of Arabidopsis thaliana with 6 samples.

Results

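The nad genes are the genes of the plant mitochondrial genome that encode core subunits of respiratory complex I, the NADH dehydrogenase that passes electrons to ubiquinone and pumps protons across the inner membrane. Their transcripts were followed in unopened flower buds of Arabidopsis thaliana over 3 days of soil drought. Members were all probe sets whose annotation names exactly 1 gene and whose gene symbol is nad followed by a digit. This rule reads no measured value, but it was set with earlier results of these data known. Of 22810 probe sets on the ATH1 array, 15 were members, and all 15 were among the 22746 tested after the maker's controls had been left out. They stand for 8 genes, with 7 probe sets for nad1, 2 for nad5 and 1 each for nad2, nad4, nad4L, nad6, nad7 and nad9. No such probe set carried the name nad3.

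All samples came from the dreb1a mutant CS872453 in the Col-0 ecotype, in which the drought- and cold-responsive transcription factor gene DREB1A is mutated according to the labels. Plants grew for 24 days, until the main stem was about 1 cm high, and then received no water for about 80 hours. At that point soil moisture had reached about 35% of capacity, which the labels call day 3, and it was held there by watering. Buds were sampled on day 3 (2 samples, age 28 days), day 4 (2 samples, age 29 days) and day 5 (2 samples, age 30 days), and each sample had its own array. Buds of the wild type or of watered plants were not analysed here. Age and time in drought cannot be told apart. The labels do not say that replicates came from separate plants, so p-values measure only how far these samples spread, which may be technical. In bulk tissue, fewer mitochondria or cells of a type and less RNA in each cannot be told apart. The number of arrays limits the precision.

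Complex I of plants is assembled from subunits of 2 genomes, with the nad genes supplying hydrophobic parts of the membrane arm and some hydrophilic parts of the peripheral arm. Several nad transcripts are interrupted by group II introns, those of nad1, nad2 and nad5 are joined from separately transcribed pieces by trans-splicing, and many are edited from C to U before translation. Plant mitochondrial mRNAs carry no stable poly-A tail, and the Col-0 nuclear genome holds a large inserted copy of mitochondrial DNA. The part of either in the signals of the nad probe sets was not tested. Flower buds, and the tapetum of the anther above all, are known for a high demand on mitochondria.

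The DREB1A level was not analysed here, so the genotype rests on the labels. Of 9 flower identity loci listed as tissue markers, 1 had a probe set of its own, UFO, at 4.48 to 5.08 on the log2 scale, and the tissue also rests on the labels. Array medians lay between 7.41 and 7.46. Poly-A and ribosomal RNA controls stood higher on day 5: the mean of 24 poly-A controls by 0.55 and the 25S ribosomal RNA control by 0.93 relative to day 4, and by 0.49 and 1.11 relative to day 3. Values scaled to the poly-A controls are given with the results below, and the part of the ribosomal RNA control was not tested. Among tapetum and early anther markers, 3 of 5 probe sets fell on day 5 against day 4, and the mean of the 5 lay at 9.42 and 9.63 on day 5, against 9.92 and 9.81 on day 4. Among green tissue markers 1 of 4 fell in the same comparison, with means of 11.96 and 12.00 on day 5, against 12.07 and 12.13 on day 4. Of 5 late pollen markers none was called there (limma, 0 at an unadjusted p under 0.05), with means of 6.70 and 6.67 on day 5, against 6.79 and 6.65 on day 4. UFO fell by 0.38 (adjusted p = 0.0488), from 4.69 and 5.08 on day 4 to 4.48 and 4.53 on day 5. It had 4.54 on both day 3 arrays, and day 5 against day 3 gave -0.04 (limma adjusted p = 0.864). In the comparisons with day 3, the late pollen receptor kinase gene ANX2 rose on day 4 by 0.54 (adjusted p = 0.0309) and on day 5 by 0.45 (adjusted p = 0.0189), and AGL65, a pollen transcription factor gene, rose on day 5 by 0.42 (adjusted p = 0.0140). The other 3 pollen markers were not called, and the pollen mean on day 3 was 6.50 and 6.49. On day 5 against day 3, 3 of 5 tapetum markers and 2 of 4 green tissue markers fell. Among all probe sets, 13.4% were called lower on day 5 against day 4 and 15.7% on day 5 against day 3. Called higher were 2.48% on day 4 against day 3 and 13.2% on day 5 against day 3. The part of tissue composition in the nad results was not tested.

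Values are given as deposited, as log2 signal per probe set. A difference of 1 is a 2-fold change, and levels of different probe sets cannot be compared because probes differ in brightness. On this array the members were dim. Mean levels over the 6 arrays ran between 4.02 for nad1 257323_at and 8.37 for nad4, 14 of 15 lay below the median of all tested values (7.44) and 3 lay below the lower quartile (4.99). The controls for the bacterial trp transcript, which should be absent, averaged 3.66, so nad1 257323_at lay close to the level of absent RNA. The median gap between the replicates was 0.21, 0.12 and 0.13 among members on days 3, 4 and 5, against 0.11, 0.13 and 0.10 over all probe sets. The 6 arrays of a member lay within 0.5 of each other for 8 of 15 members, nad2 had the widest spread at 1.22 and nad1 257324_at the narrowest at 0.19.

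**Figure D1:**
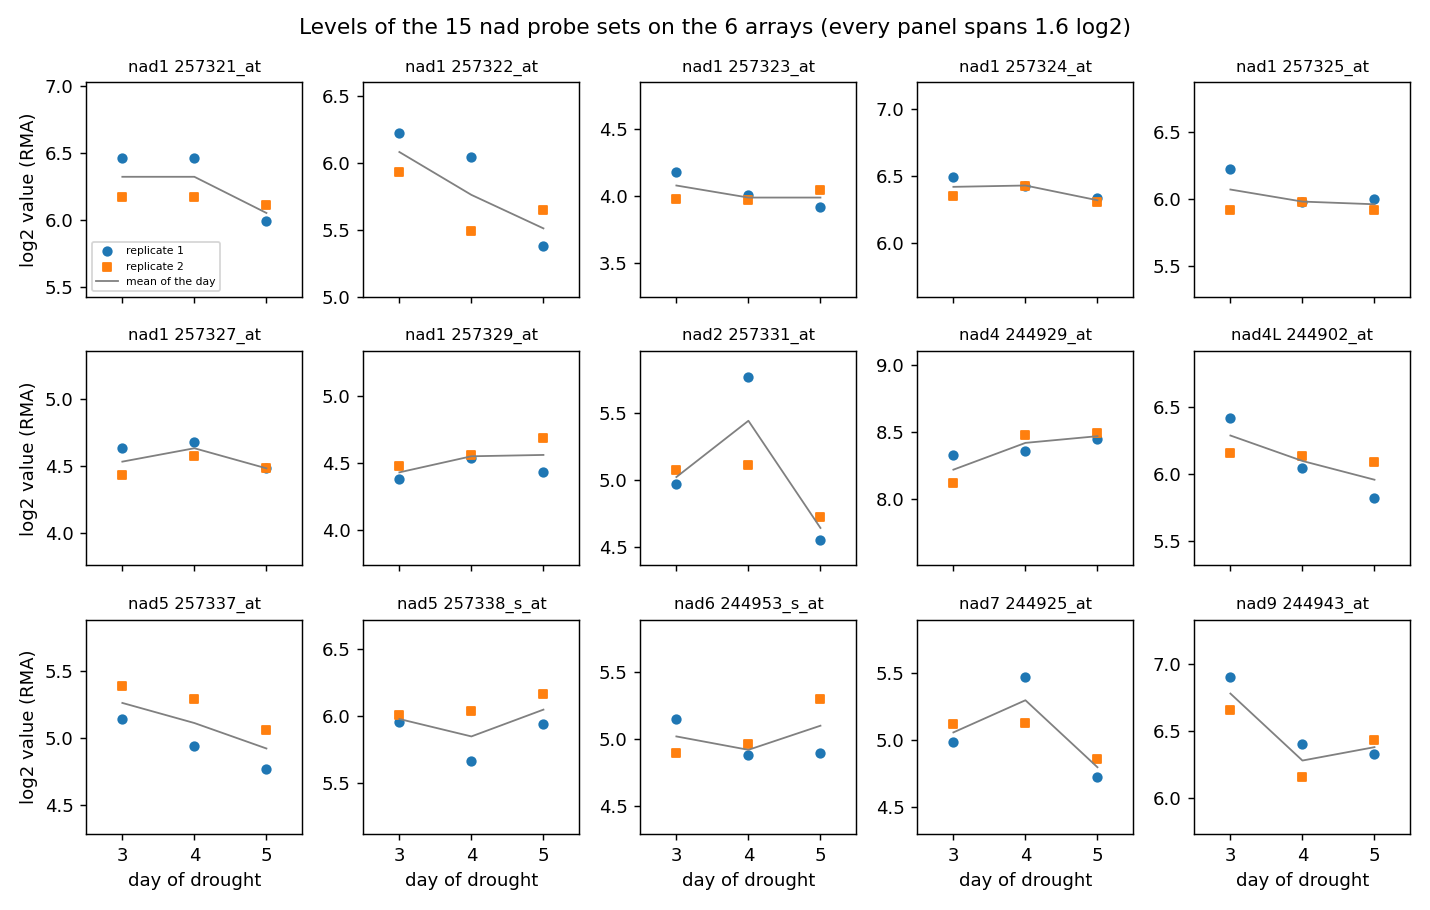
Log2 value of each of the 15 nad probe sets (y axis, every panel spanning 1.6) on days 3, 4 and 5 of drought (x axis), with circles for replicate 1, squares for replicate 2 and a line through the means. The nad2 and nad7 panels peak on day 4 with a gap between the day 4 replicates, the nad9 panel is highest on day 3, and most nad1 panels are nearly level.

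In the moderated F test of limma over the 3 days, 3 of 15 members differed among days (adjusted p under 0.05), beside 31.0% of all probe sets tested. These were nad2 (adjusted p = 0.0146), nad9 (adjusted p = 0.0208) and nad7 (adjusted p = 0.0284). At an unadjusted p under 0.05 there were 4, beside 9687 of all 22746 probe sets tested. Each changed by less than 2-fold, and for 14 of 15 members the 95% intervals for every pair of days lay within a change of 1 on the log2 scale. The exception was nad2.

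The nad7 and nad9 genes encode hydrophilic subunits of the peripheral arm, near the site where ubiquinone binds. The nad7 probe set had log2 values of 4.99 and 5.12 on day 3, 5.47 and 5.13 on day 4, and 4.73 and 4.86 on day 5. Both day 5 arrays lay below all others, and the high value of day 4 came from 1 array. nad7 fell on day 5 relative to day 4 by 0.51 (SE 0.13, 95% interval -0.78 to -0.23, limma adjusted p = 0.0148), a 1.42-fold decrease. Against day 3 the change was -0.26 (adjusted p = 0.148). The call for day 5 against day 4 was lost when either replicate 1 was left out, that of day 4 (-0.33, adjusted p = 0.0918) or that of day 5 (-0.44, adjusted p = 0.0910).

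nad9 had its higher level on day 3. Its log2 values were 6.90 and 6.66 on day 3, 6.40 and 6.16 on day 4, and 6.33 and 6.43 on day 5, and neither later day overlapped day 3. The fall on day 4 relative to day 3 was 0.49 (SE 0.12, 95% interval -0.76 to -0.22, limma adjusted p = 0.0439), a 1.41-fold decrease. Day 5 also lay below day 3, by a log2 change of -0.40 (SE 0.12, 95% interval -0.67 to -0.13, adjusted p = 0.0317), while day 5 against day 4 gave 0.10 (95% interval -0.17 to 0.37). The first call did not hold without day 3 replicate 1 (-0.37, adjusted p = 0.297), day 3 replicate 2 (-0.61, adjusted p = 0.0735), day 4 replicate 2 (-0.37, adjusted p = 0.206) or either day 5 array (-0.49, adjusted p = 0.0599). It did not hold either with a prior that follows the level (adjusted p = 0.0530), with median centring of the arrays (-0.47, adjusted p = 0.0541), with quantile normalization repeated (-0.47, adjusted p = 0.0570), with either scaling to controls or to the other mitochondrial probe sets (-0.43 in both) or with only the 2 days in the fit (adjusted p = 0.0599). The fits without either day 5 array equal this last fit, since a lone day 5 array adds nothing to the estimate of spread. The call for day 5 against day 3 did not hold without day 3 replicate 1 (-0.28, adjusted p = 0.223), day 5 replicate 1 (-0.35, adjusted p = 0.155) or day 5 replicate 2 (-0.45, adjusted p = 0.0788), or with values scaled to the other mitochondrial probe sets (-0.32, adjusted p = 0.172).

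The nad2, nad4 and nad5 genes encode the antiporter-like subunits of the membrane arm, which take part in proton pumping. nad2 gave the largest change of any member. It had log2 values of 4.97 and 5.07 on day 3, 5.77 and 5.11 on day 4, and 4.55 and 4.72 on day 5. Day 5 lay below both other days on both arrays, and of the day 4 arrays only replicate 1 stood well clear of day 3. nad2 fell on day 5 relative to day 4 by 0.80 (SE 0.18, 95% interval -1.19 to -0.42, limma adjusted p = 0.00771), a 1.74-fold decrease. Without day 4 replicate 1 the change was -0.47. The fall was also called with only days 4 and 5 in the fit, which equals the fit without either day 3 array.

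For nad2, day 4 against day 3 gave 0.42 (95% interval 0.03 to 0.80, adjusted p = 0.208), with 0.75 (adjusted p = 0.0259) without day 4 replicate 2 and 0.09 (adjusted p = 0.739) without day 4 replicate 1. Day 5 against day 3 gave -0.39 (95% interval -0.77 to 0.00, adjusted p = 0.128), with an adjusted p of 0.0199 when only those 2 days were fitted or when either day 4 array was left out. Set against the mean of days 3 and 5, nad2 was 1.53-fold higher on day 4 (log2 change 0.61, SE 0.15, adjusted p = 0.0386). It was the 1 member called in that contrast, beside 6.88% of all probe sets (3.39% higher and 3.49% lower). An unadjusted p under 0.05 was passed by 3 members there, beside 5708 of all 22746 probe sets tested. The count of members called there was 0 without either day 3 array, day 4 replicate 1 or either day 5 array, and 2 without day 4 replicate 2. nad7 gave 0.37 in the same contrast (adjusted p = 0.0655).

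nad4 lay at the percentile of 66.1 of all probe sets by mean level. It had log2 values of 8.33 and 8.12 on day 3, 8.36 and 8.48 on day 4, and 8.45 and 8.49 on day 5, with no overlap between days 5 and 3. Its change on day 5 against day 3 was 0.25 (95% interval 0.01 to 0.49, adjusted p = 0.116), the highest value of any member in that comparison. Its changes over the single steps were 0.19 for day 4 relative to day 3 and 0.05 for day 5 relative to day 4.

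The 2 probe sets of nad5 had changes of opposite sign on day 5. 257337_at had values of 5.14 and 5.39 on day 3, 4.94 and 5.29 on day 4, and 4.77 and 5.06 on day 5, a change of -0.35 for day 5 against day 3 (95% interval -0.67 to -0.03, adjusted p = 0.0996). 257338_s_at had 5.96 and 6.01 on day 3, 5.67 and 6.04 on day 4, and 5.94 and 6.17 on day 5, a change of 0.07 (95% interval -0.22 to 0.37). Neither change passed the test, and the difference between the probe sets was not tested. The suffix of 257338_s_at marks probes that the array maker found to match more than 1 transcript.

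nad1 encodes the membrane-arm subunit next to the ubiquinone channel, and its mRNA is assembled from separate transcripts. The annotation does not say which piece, exon or intron each of its 7 probe sets covers. One of them, 257322_at, was called in 1 comparison of 2 days, but it did not pass the moderated F test over the 3 days (adjusted p = 0.0691). It had log2 values of 6.22 and 5.93 on day 3, 6.04 and 5.49 on day 4, and 5.38 and 5.65 on day 5. Both arrays of day 5 lay below both of day 3, while the day 4 replicates spanned most of the range between them. The level fell on day 5 relative to day 3 by 0.57 (SE 0.17, 95% interval -0.95 to -0.18, limma adjusted p = 0.0312), a 1.48-fold decrease. The changes over the single steps were -0.31 to day 4 and -0.25 to day 5, and neither passed the test. Leaving out day 3 replicate 1 (-0.42, adjusted p = 0.212) or day 5 replicate 1 (-0.43, adjusted p = 0.182) ended the call.

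The other 6 nad1 probe sets changed by between -0.27 and 0.13 in every comparison of 2 days, and none passed the test. The lowest of these came from 257321_at, which had 6.46 and 6.17 on day 3, 6.46 and 6.17 on day 4, and 5.99 and 6.11 on day 5 (day 5 against day 3 -0.27, 95% interval -0.56 to 0.02, adjusted p = 0.160). The steadiest was 257324_at, with 6.49 and 6.35 on day 3, 6.43 and 6.43 on day 4, and 6.34 and 6.31 on day 5. Whether 257322_at differs from the other nad1 probe sets was not tested. Over the 6 arrays the 21 pairs of nad1 probe sets had correlations between -0.68 and 0.89 with a median of 0.56. The gene matR, which encodes a maturase and lies within a nad1 intron, had log2 values of 4.13 and 4.25 on day 3, 4.15 and 3.87 on day 4, and 4.13 and 4.30 on day 5, and did not pass the test in any comparison. A further 2 probe sets that name nad1 also name a nuclear locus and were left out.

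nad4L and nad6 encode small membrane-arm subunits. nad4L had log2 values of 6.42 and 6.16 on day 3, 6.05 and 6.14 on day 4, and 5.82 and 6.09 on day 5. Neither later day overlapped day 3, and the change for day 5 against day 3 was -0.34 (95% interval -0.61 to -0.06, adjusted p = 0.0658). nad6, measured by 244953_s_at with the same suffix as 257338_s_at, had 5.15 and 4.90 on day 3, 4.88 and 4.96 on day 4, and 4.90 and 5.30 on day 5, all days overlapping, with changes between -0.10 and 0.18.

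**Figure D2:**
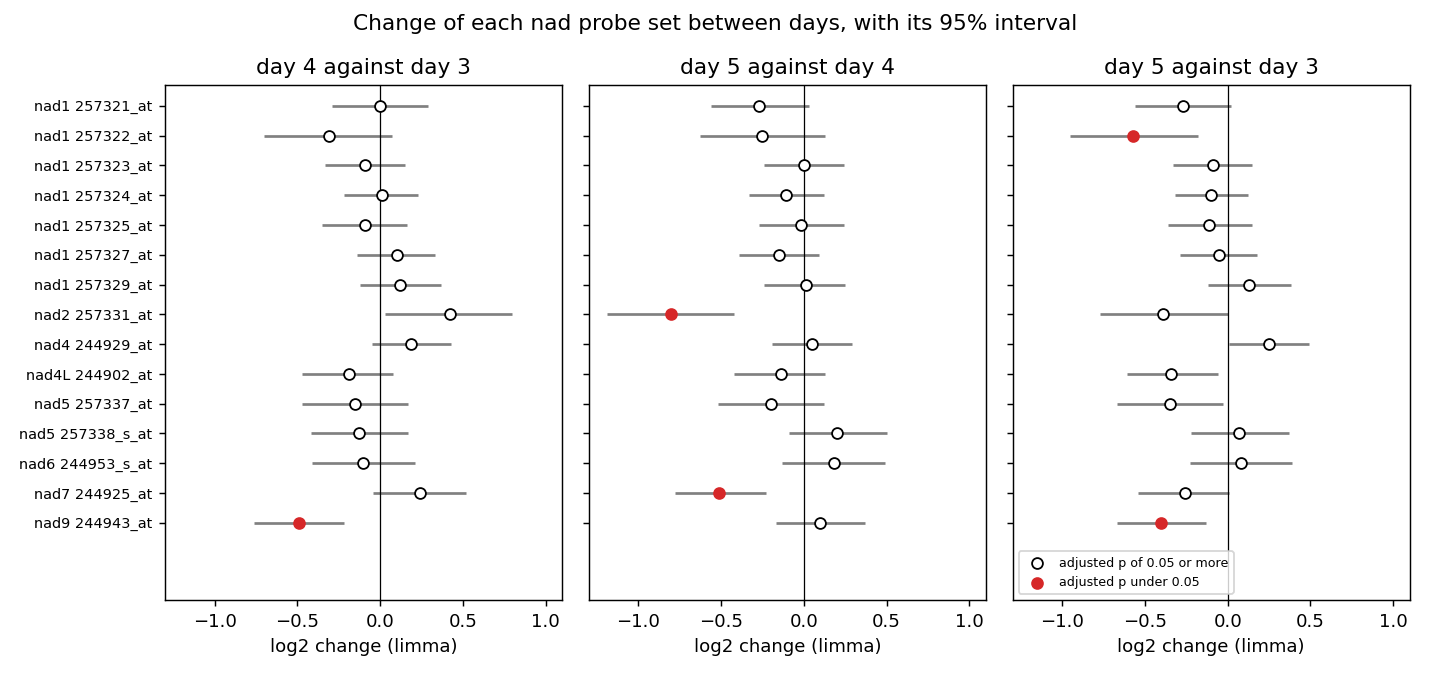
Log2 change of each nad probe set (x axis) between days 4 and 3 (left), 5 and 4 (middle) and 5 and 3 (right), later minus earlier, with lines for 95% intervals of limma and filled red points for an adjusted p under 0.05. The 5 filled points, all left of 0, are nad9 in the first panel, nad2 and nad7 in the second, and nad1 257322_at and nad9 in the third.

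Counted over the pairs of days, 1 of 15 members was called on day 4 against day 3, lower, beside 4.95% of all probe sets (2.47% lower). On day 5 against day 4, 2 of 15 were called, both lower, beside 23.9% of all probe sets (13.4% lower). On day 5 against day 3, 2 of 15 were called, both lower, beside 28.9% (15.7% lower). No member was called higher in these 3 comparisons, where 2.48%, 10.5% and 13.2% of all probe sets were. An unadjusted p under 0.05 was passed by 2, 2 and 5 members, beside 4637, 8276 and 8899 of all 22746 probe sets tested. These counts show nothing particular to the nad genes. The 3 comparisons share samples, so their calls are not independent of each other.

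In the same order of comparisons, the median change of the members was -0.09, -0.11 and -0.11, beside medians of 0.02, -0.05 and -0.01 over all probe sets. Changes were below 0 in 9, 10 and 11 of 15 members, beside 45.5%, 58.1% and 52.2% of all probe sets. Arrays of the 2 days did not overlap for 8 members that were lower and 1 that was higher on day 5 against day 3, where 35.7% and 30.2% of all probe sets did the same. For day 5 against day 4 there were 5 lower and 0 higher (37.1% and 25.1% of all probe sets), and for day 4 against day 3 there were 2 lower and 4 higher (21.7% and 28.4%). The mean over the 15 members on each array lay at 5.76 and 5.65 on day 3, 5.71 and 5.63 on day 4, and 5.47 and 5.62 on day 5. The lowest of the 6 was day 5 replicate 1, and day 5 replicate 2 lay beside the lower array of day 4.

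The genes differ in transcript structure, and the classes are too small to compare. Of the 10 probe sets of the trans-spliced genes nad1, nad2 and nad5, 1 was called on day 5 against day 4 and 1 on day 5 against day 3. Of the 2 for nad4 and nad7, whose introns are removed within 1 transcript, 1 was called on day 5 against day 4. Of the 3 for the intronless nad4L, nad6 and nad9, nad9 alone was called, on days 4 and 5 against day 3. The shares called lower over all probe sets were 13.4% between days 5 and 4, 15.7% between days 5 and 3 and 2.47% between days 4 and 3. In the order of the RefSeq gene table (TAIR10.1) nad7 lies beside nad5, and nad2 beside nad6, and in neither pair did both genes have a call. That order gives each gene 1 place, although nad2 and nad5 are made from separately transcribed pieces. It therefore does not show which piece lies beside the neighbour.

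Whether members moved as 1 group over the 6 arrays cannot be told from their correlations. The median absolute change of the members between days was 0.13 to 0.25, and the median gap between their replicates 0.12 to 0.21. Such gaps lower correlations, and pairs of other probe sets were not examined. The correlation with the mean of the members was above 0 for 12 members. The 105 pairs of members had a median correlation of 0.21, between -0.75 for nad2 with nad5 257338_s_at and 0.99 for nad2 with nad7. These are descriptions over 6 arrays that share their days and their normalization. nad2 and nad7 had the same order of the 6 arrays, with day 4 replicate 1 highest and day 5 replicate 1 lowest.

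The 10 genes most like the mean of the centred members over the 6 arrays had correlations between 0.960 and 0.995. They were led by AT1G07860 (0.995), with log2 values of 5.63 and 5.41 on day 3, 5.56 and 5.40 on day 4, and 5.14 and 5.36 on day 5. AT1G06760 (0.983) and ROXY2, a floral glutaredoxin gene of anther development (0.976), came next. The search took in only probe sets that name 1 gene (13513 of those tested) and left out the members. With so many probe sets and 6 arrays, correlations this high are a description of these arrays only. The remaining genes were AT3G19370, AT2G07751, AT1G05310, AT1G61730, AT5G27490, AT5G58280 and AT5G18390. The probe set of AT2G07751 has the same suffix as 257338_s_at, so its probes may match other transcripts too. Whether it also reads a transcript of the mitochondrial genome was not tested.

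The other genes of the mitochondrial genome had 8 probe sets, with 0 called on day 4 against day 3 (limma, 1 at an unadjusted p under 0.05). On day 5 against day 4, 1 was called higher and 2 lower, beside 10.5% and 13.4% of all probe sets. cox1, which encodes the catalytic subunit of cytochrome c oxidase, rose by a log2 change of 0.36 (adjusted p = 0.0351), with values of 8.62 and 8.64 on day 5, against 8.26 and 8.29 on day 4. cox2, another subunit of the same oxidase, fell by 0.34 (adjusted p = 0.0476), with 6.90 and 6.91 on day 5, against 7.37 and 7.11 on day 4. ccb382 (ccmFN1), a gene of cytochrome c maturation, fell by 0.44 (adjusted p = 0.0425). All 3 calls were lost without either day 5 array, among other settings: cox1 then gave 0.37 and 0.35 (adjusted p = 0.114 and 0.152), cox2 -0.33 and -0.34 (0.157 and 0.166), and ccb382 -0.34 and -0.54 (0.222 and 0.0701). ccb452 (ccmFC) gave 0.25 in that comparison and was not called. The median change of the 8 was 0.07, against -0.11 for the nad probe sets. A further 11 probe sets pair a mitochondrial gene with a nuclear locus. Of these, 0 were called between days 4 and 3 (4 at an unadjusted p under 0.05), 1 between days 5 and 4 and 2 between days 5 and 3. The shares called over all probe sets were 4.95%, 23.9% and 28.9%, and 4637 of 22746 passed the unadjusted p between days 4 and 3.

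The nuclear genome encodes the rest of complex I, and 27 of 40 listed loci had a probe set of their own. None was called on day 4 against day 3 (limma, 1 at an unadjusted p under 0.05). On day 5 against day 4, 6 of 27 fell and none rose, and on day 5 against day 3, 4 fell and none rose, with medians of -0.18 and -0.14. Over all probe sets 13.4% and 15.7% were lower in these comparisons, so the second count is close to that share. GLDH, the L-galactono-1,4-lactone dehydrogenase that makes ascorbate and serves in complex I assembly, had 8.22 and 7.96 on day 5, against 8.67 and 8.62 on day 4, and fell by 0.56 (adjusted p = 0.00530). AT2G20360 had 10.60 and 10.48 on day 5, against 11.10 and 10.99 on day 4, and fell by 0.50 (adjusted p = 0.00534). AT3G08610 fell by 0.36 (adjusted p = 0.0271) and AT4G02580 by 0.33 (adjusted p = 0.0368). These calls were lost with quantile normalization repeated, with cyclic loess, or when any single array of days 4 and 5 was left out. Without day 5 replicate 2 the calls of GLDH (-0.43, adjusted p = 0.0647) and AT2G20360 (-0.44, adjusted p = 0.0577) were lost, and with quantile normalization repeated or cyclic loess the count was 2 of 27.

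**Figure D3:**
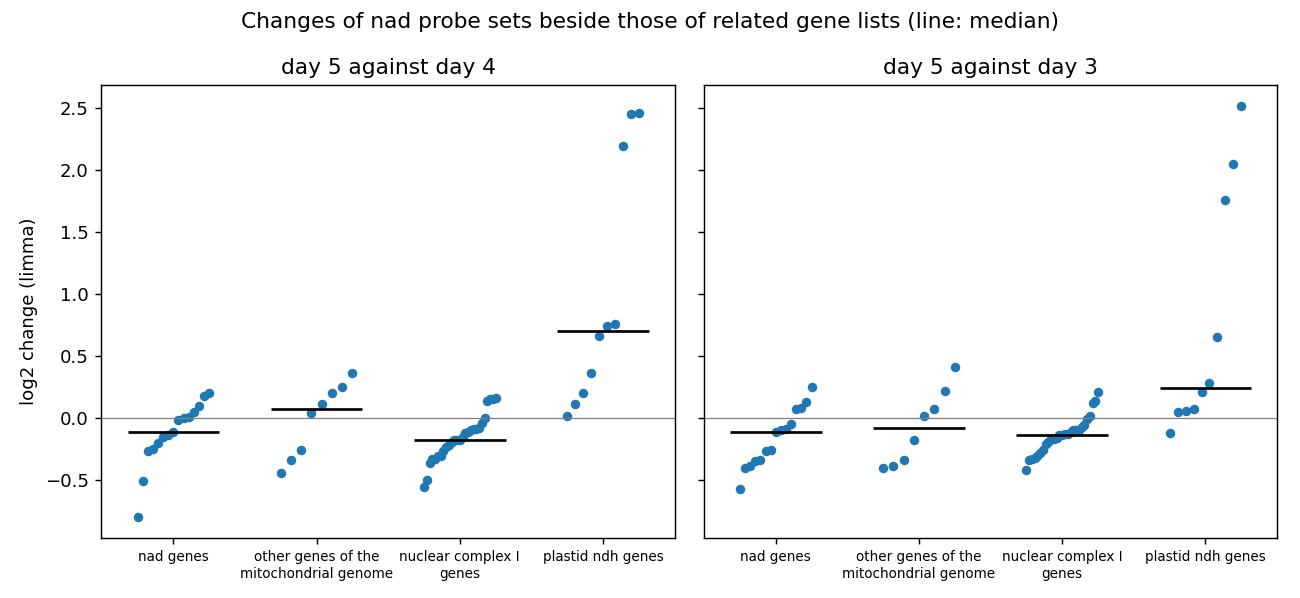
Log2 change (y axis) of each probe set of the nad genes, the other mitochondrial genes, the nuclear complex I genes and the plastid ndh genes, for day 5 against day 4 (left) and day 5 against day 3 (right), with a line at the median. The nad points lie between -0.80 and 0.25, and 3 plastid ndh points stand above 1.7 in both panels.

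The plastid genome encodes the ndh genes, whose products form a relative of complex I in the thylakoid membrane. Of their 10 probe sets, 6 rose on day 5 against day 4 and 4 on day 5 against day 3, with medians of 0.70 and 0.24. Among all probe sets, 10.5% and 13.2% were called higher in these comparisons. Rises were not limited to ndh genes. Of the 69 probe sets of the plastid genome, ndh included, 19 were called higher and 13 lower on day 5 against day 4. Against day 3 these counts were 15 and 11. ndhG rose by 2.46, with 8.37 and 9.15 on day 5, against 6.59 and 6.01 on day 4. ndhF rose by 2.45 and ndhE by 2.19. ndhK fell on day 4 against day 3 by 0.55 (adjusted p = 0.0127), a call lost without day 3 replicate 1 (-0.48, adjusted p = 0.131) or day 4 replicate 2 (-0.52, adjusted p = 0.0710).

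Genes listed for nad transcript maturation and mitochondrial RNA had probe sets for 8 of 25 loci, with 2 lower on day 5 in both comparisons and none higher. Among all probe sets, 13.4% were called lower on day 5 against day 4 and 15.7% against day 3. AT5G14580 fell by 0.52 against day 4 (adjusted p = 0.00957) and by 0.39 against day 3, and AT3G61360 by 0.35 (adjusted p = 0.0411) and 0.49 (adjusted p = 0.00624). Each of these 4 calls was lost without day 5 replicate 2, with adjusted p of 0.0928 and 0.208 for AT5G14580 and 0.293 and 0.0763 for AT3G61360. OTP43, a factor of organelle transcript processing needed for trans-splicing of nad1, gave -0.14 and -0.17 and was not called, and AT1G74350 gave 0.25 and 0.07. The 1 phage-type RNA polymerase locus with a probe set, AT5G15700, changed by -0.17 and -0.05 and was not called.

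Of the genes whose products let electrons bypass complex I, 5 of 13 loci had a probe set, all of them for alternative NAD(P)H dehydrogenases. Called higher by limma were 1 on day 4 against day 3, 1 on day 5 against day 4 and 2 on day 5 against day 3. Over all probe sets, 2.48%, 10.5% and 13.2% were called higher in these comparisons. NDB2 had 8.68 and 8.57 on day 4, against 8.15 and 8.05 on day 3, and rose by 0.53 (adjusted p = 0.0146). It also rose on day 5 against day 3, by 0.58 (adjusted p = 0.00145), a call that was lost with the poly-A scaling given below. NDB3 had 8.48 and 8.55 on day 5, against 8.16 and 7.87 on day 4, and rose by 0.50 (adjusted p = 0.0149), and by 0.60 against day 3 (adjusted p = 0.00413). The first NDB2 call was lost without either day 3 array (adjusted p = 0.0800 and 0.104) or day 4 replicate 1 (0.0553), and the first NDB3 call without day 4 replicate 2 (0.0944) or day 5 replicate 2 (0.0931). NDB1 and NDC1 gave -0.26 and -0.24 for day 5 against day 3, and were not called. Among 8 probe sets for other nuclear-encoded respiratory complexes, 1 was called, higher on day 5 against day 3, where 13.2% of all probe sets were. This was CYTC-2, a cytochrome c gene, which rose by 0.44 (adjusted p = 0.00769). That call was lost without day 3 replicate 1 (0.42, adjusted p = 0.0509) or day 5 replicate 1 (0.41, adjusted p = 0.0533), and with the poly-A scaling given below.

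**Figure D4:**
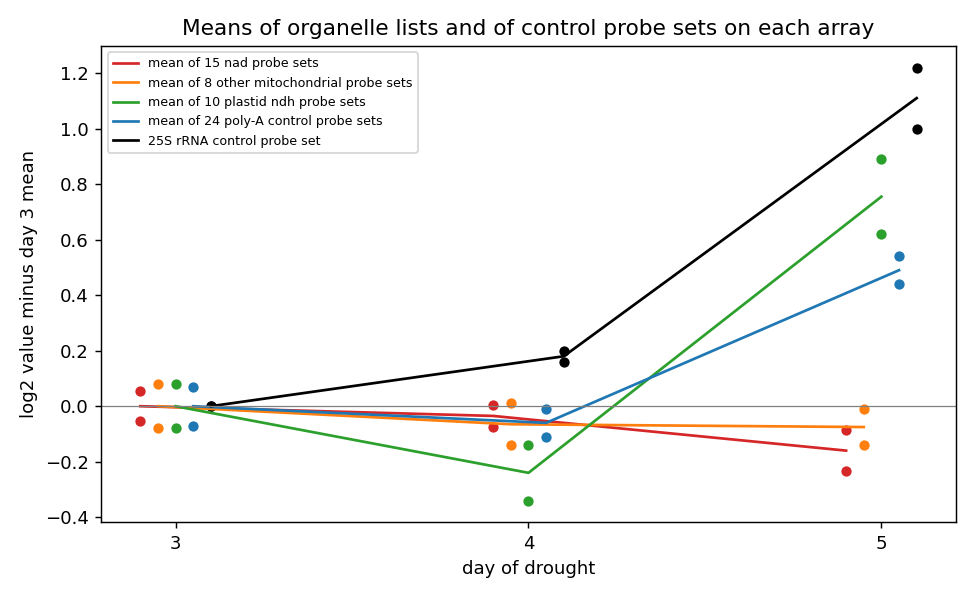
Mean log2 value of 3 organelle lists and of the poly-A controls, and the 25S rRNA control, on each array (points) and per day (lines), each minus its day 3 mean (y axis) over the days of drought (x axis). The nad mean stays within 0.3 of its day 3 mean on every array, while both kinds of controls and the ndh mean stand higher on day 5.

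Directions on day 5 depend on what the arrays are scaled to. With each array scaled to its 24 poly-A controls, the median change of all probe sets became -0.60 for day 5 relative to day 4 and -0.50 relative to day 3. On that scale 15 and 14 of 15 nad probe sets were called lower, with medians of -0.66 and -0.60, and all 27 nuclear complex I probe sets were called lower in both comparisons. The 10 ndh probe sets split into 3 higher and 3 lower for day 5 against day 4. The changes of cox1 turned to -0.19 and -0.08 and those of NDB3 became -0.05 and 0.11, with no call. For day 5 against day 3, NDB2 gave 0.09 (adjusted p = 0.513) and CYTC-2 turned to -0.05 (adjusted p = 0.704) on that scale. Since this scaling shifts all values of an array alike, the gap between the nad median and the median of all probe sets is the same in both scalings by construction. Whether the samples received equal amounts of control RNA is not given in the labels.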

How the data were processed

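Total RNA from 6 bud samples was hybridised to ATH1 arrays, 1 per sample. The deposited log2 values, 1 per probe set and array, were made by the authors with RMA in affy, per the submitters' processing notes. The software version was not given in the sources used here, nor was the set of arrays normalised jointly. Quantile normalization, a step of RMA, hides a change shared by most transcripts.

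Genes were named through the platform annotation. The member gene IDs matched the RefSeq table (TAIR10.1) in 0 of 15 cases by ID and in 15 by symbol. One model with the day as its term was fitted to all 22746 tested probe sets with limma 3.58.1 in R 4.3.3 (3 residual and 8.01 prior degrees of freedom). P-values are two-sided and adjusted (Benjamini-Hochberg) over the whole table of tested probe sets, with a threshold of 0.05. The procedure was tested on simulated data.

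All members are named. From each other list, taken by locus, up to 4 with the smallest F p were named, with further ones chosen after their values were seen, and the 10 genes most correlated with the member mean. Members and lists were chosen with earlier results of these data known. Alternatives changed the prior, centring, normalization, scaling, filters, block, arrays fitted and fold minimum. Scalings of the other lists were added after seeing the data.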

Additional observations from a re-analysis of the deposited data

How the results depend on the processing

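With values scaled to the poly-A controls, the number of nad probe sets called became 0 between days 4 and 3, 15 between days 5 and 4, 14 between days 5 and 3, 8 for day 4 against the mean of days 3 and 5, and 14 in the F test. That scaling also turned 8 member changes: nad1 257329_at to -0.55 (day 5 against day 4) and -0.36 (day 5 against day 3), nad5 257338_s_at to -0.35 and -0.41, nad6 to -0.37 and -0.41, and, for day 5 against day 4, nad4 to -0.50 and nad9 to -0.45. It shifts all values of an array alike. For day 4 against day 3 the count of 1 became 0 with a prior that follows the level, median centring, repeated quantile normalization, scaling to the other mitochondrial probe sets, only the 2 days fitted or a 2-fold minimum. For day 5 against day 4 the count of 2 became 0 with the dimmest 30% left out, which removed both called members, or a 2-fold minimum. For day 5 against day 3 the count of 2 became 1 with scaling to the other mitochondrial probe sets and 0 with a 2-fold minimum. For day 4 against the mean of days 3 and 5 the count of 1 became 0 with repeated quantile normalization, cyclic loess, the dimmest 30% left out or a 2-fold minimum. In the F test the count of 3 became 1 with the dimmest 30% left out. Leaving out 1 array at a time gave counts of 0 to 1 between days 4 and 3, 1 to 2 between days 5 and 4, 0 to 3 between days 5 and 3, 0 to 2 for day 4 against that mean, and 1 to 4 in the F test. The causes were not tested beyond what each alternative removes. Of 738 recomputed member changes, 688 stayed on their side of the threshold (37 of them uncalled with the sign turned), 19 lost the call, 23 gained one and 8 reversed.

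With the replicate number as a block, the counts were 1, 2 and 3 for the pairs of days in the order above, 1 for day 4 against that mean and 4 in the F test, and nad5 257337_at passed for day 5 against day 3 (-0.35, adjusted p = 0.0239). Same-numbered arrays had correlations of deviations of 0.06, 0 and 0.1 between days, taken over all probe sets. Whether same-numbered samples share more than a number was not tested. Signal over background limits nad1 257323_at most, whose level lay near that of absent RNA.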
